A study of Mus musculus with 12 samples.

Results

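The genes described here are 9 receptors of myeloid cells that send or balance inhibitory signals: Cd300a, Cd300lb, Cd300ld, Cd300lf, Pilra, Pirb, Sirpa, Cd33 and Siglec1. They were chosen by symbol, as the rows of the count table that map to these names, and all 9 were found among 46078 gene identifiers. The tissue was spinal cord white matter of C57Bl6 mice, cut out by laser capture and pooled from 5 mice per library, with 3 pools in each of 4 groups. The groups were young naïve and middle-aged naïve mice, which had no lesion, and young injured and middle-aged injured mice, taken 72 h (day 3) after lysolecithin was injected into the ventrolateral white matter to strip its myelin. By the study's methods the young mice were aged 6 weeks and the others 8 months, while the labels hold no ages. No cells were sorted, RNA was amplified before sequencing, and differences among the 5 mice of a pool cannot be seen.

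Paired receptors are families of close relatives on macrophages, microglia, monocytes and granulocytes in which some members restrain the cell and others activate it. The restraining members carry immunoreceptor tyrosine-based inhibitory motifs (ITIMs) in the tail inside the cell, and when Src-family kinases phosphorylate these tyrosines, the phosphatases SHP-1 and SHP-2 or the inositol phosphatase SHIP-1 dock there. The activating members have short tails and signal through the adaptors DAP12 (Tyrobp) or the Fc receptor gamma chain (Fcer1g). Many of these receptors read signs of self or of dying cells: phosphatidylserine for several CD300 proteins, CD47 for SIRPα, major histocompatibility complex (MHC) class I for PIR-B and sialic acid for the Siglecs.

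The tail motif separates the members, so its codons are shown. Coding sequences were taken from the GRCm38 annotation, and the tail was searched for isoleucine, valine, leucine or serine, any residue, tyrosine, any pair of residues, and then isoleucine, valine or leucine. Each line gives the 18 bases of a match, 5′ to 3′, with the tyrosine codon in capitals.
Cd300a match 1: gtggaaTATagcacattg
Cd300a match 2: cttcacTATtcatccgtg
Cd300lf match 1: ctctgtTATgcagacctg
Cd300lf match 2: gtttcaTATgccgctctg
Pilra match 1: atcgtgTATgcttccatc
Pirb match 1: agcctaTATgcttcagtg
Pirb match 2: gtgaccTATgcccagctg
Pirb match 3: agtgtaTATgctactctg
Sirpa match 1: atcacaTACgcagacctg
Sirpa match 2: ctcaccTATgctgacctg
Sirpa match 3: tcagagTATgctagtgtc
Matches were found in the tails of 5 members: 2 in Cd300a, 2 in Cd300lf, 1 in Pilra, 3 in Pirb and 3 in Sirpa. None was found in Cd300lb, with a tail of 29 residues, in Cd300ld (21 residues), in Siglec1 (32 residues) or in Cd33 (61 residues). Among 7483 coding genes with a hydrophobic stretch (19 residues with a mean Kyte-Doolittle value of at least 1.6), 26.1% held at least 1 such match after it and 6.86% held at least 2. A match is a pattern of letters, not evidence of a working motif. The Cd33 tail was read from a transcript that is not its longest coding one. A member's transcript was used only if it began with a start codon and had at least 10 residues after a hydrophobic stretch.

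The promoters of all members with an entry among RefSeq's promoter windows were also read (GRCm38.p6, 250 bases before to 50 after the start). The letters GAGGAA, part of the site read by PU.1, a factor that myeloid genes depend on, were searched on both strands. Of the 7 members with an entry, 6 held them (all but Cd300lb), against 28.3% of 32851 windows. The longer GAGGAAGT, which contains GAGGAA, was in the windows of Cd300ld, Cd300lf and Pirb and in 3.2% of all windows. These 3 windows are shown with GAGGAA or its reverse complement in capitals.
Cd300ld, chr11:114989837-114990136, minus strand: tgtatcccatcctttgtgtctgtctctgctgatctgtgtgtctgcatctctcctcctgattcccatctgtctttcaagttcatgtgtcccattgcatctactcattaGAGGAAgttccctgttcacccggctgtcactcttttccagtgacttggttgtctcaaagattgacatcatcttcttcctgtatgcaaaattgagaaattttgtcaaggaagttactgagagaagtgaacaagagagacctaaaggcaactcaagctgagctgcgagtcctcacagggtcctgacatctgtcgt
Cd300lf, chr11:115133943-115134242, minus strand: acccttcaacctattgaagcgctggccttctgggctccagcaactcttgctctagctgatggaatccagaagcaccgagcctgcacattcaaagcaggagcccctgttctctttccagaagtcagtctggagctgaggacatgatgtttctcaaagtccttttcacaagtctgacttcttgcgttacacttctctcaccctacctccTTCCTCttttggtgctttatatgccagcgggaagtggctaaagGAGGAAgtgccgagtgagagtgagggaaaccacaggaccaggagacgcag
Pirb, chr7:3720333-3720632, minus strand: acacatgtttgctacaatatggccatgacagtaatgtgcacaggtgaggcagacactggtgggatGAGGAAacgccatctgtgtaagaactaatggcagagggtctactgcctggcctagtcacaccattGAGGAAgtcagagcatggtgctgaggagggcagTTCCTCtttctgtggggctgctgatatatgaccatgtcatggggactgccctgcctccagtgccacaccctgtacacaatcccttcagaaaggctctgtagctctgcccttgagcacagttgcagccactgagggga
Cd300ld held 1 match, Cd300lf 2 and Pirb 3. No binding was measured, and whether any of these letters is a working site was not tested.

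Cd300a, Cd300lb, Cd300ld and Cd300lf lie on chromosome 11 of GRCm38, at 114890041-114904654, 114922781-114934386, 114982274-114989922 and 115116214-115133992. Cd300a is on the plus strand and the other 3 are on the minus strand. Pilra lies on chromosome 5 (137821952-137836281, minus strand), Pirb on chromosome 7 (3711409-3720391, minus), Cd33 on chromosome 7 (43524216-43544428, minus), Sirpa on chromosome 2 (129592835-129632228, plus) and Siglec1 on chromosome 2 (131069220-131086765, minus). A member's reads can be mixed with a neighbour's or a copy's in 2 cases. Pilra shares 468 exon bases with Zcwpw1 on the opposite strand, and 28.5% of the 31-base stretches in its transcripts occur in other genes. For Pirb the share is 44.1%, most often with Gm14548, and Pirb values are therefore less certain. The share was 8.2% or less for the other 7 members.

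Each pool held between 9834447 and 12807437 counts, so 3 counts, the floor used for detection, stood at 0.234 to 0.305 counts per 1000000 of the library total. All levels given as CPM are counts per 1000000 TMM-scaled counts, TMM being edgeR's trimmed mean of M values, which sets the libraries to a common scale. Genes were fitted together with edgeR's quasi-likelihood test, all 15866 that passed its filter on low counts were tested, and all 9 members were among them. Adjusted p-values are Benjamini-Hochberg values over those genes. Oligodendrocyte markers, which define white matter, summed to 52940 to 101800 CPM in naïve and 7920 to 20230 CPM in injured pools. The 9 pan-myeloid markers (Ptprc, Itgam, Aif1, Csf1r, Spi1, Laptm5, Tyrobp, Fcer1g, Cd68) summed to 101 to 135 CPM in young naïve, 158 to 227 in middle-aged naïve, 1975 to 2030 in young lesion and 2033 to 2631 in middle-aged lesion pools. Neutrophil markers stayed at or below 3.15 CPM in sum, with Ly6g at no more than 5 summed counts in any group. B cell markers stayed at or below 0.575 CPM and T and NK cell markers at or below 6.3 CPM. Border macrophage markers summed to 4.56 to 10.6 CPM in naïve and 45.7 to 88.4 CPM in injured pools.

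All 9 receptors were higher in the lesion than in naïve white matter at both ages. In young mice the median log2 fold change of the 9 was 5.36, against 0.00 over all genes tested. In middle-aged mice it was 4.80, against -0.03. The test called 28.3% of all genes higher in young and 29.2% in middle-aged injured pools, so a higher call was common, but only between 0.599% and 15.2% of genes had a larger fold change than any given member in young mice and between 1.08% and 10.2% in middle-aged mice. Every injured pool was above every naïve pool of its age for each of the 9. The share of all genes for which this held was not counted. In RNA from whole pieces of tissue, more myeloid cells and more RNA per cell cannot be told apart, and all 9 pan-myeloid markers were higher too, from Csf1r (log2 2.08 in young and 1.84 in middle-aged mice) to Cd68 (6.90 and 5.50), with a median of 4.26 and 3.62.

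**Figure D1:**
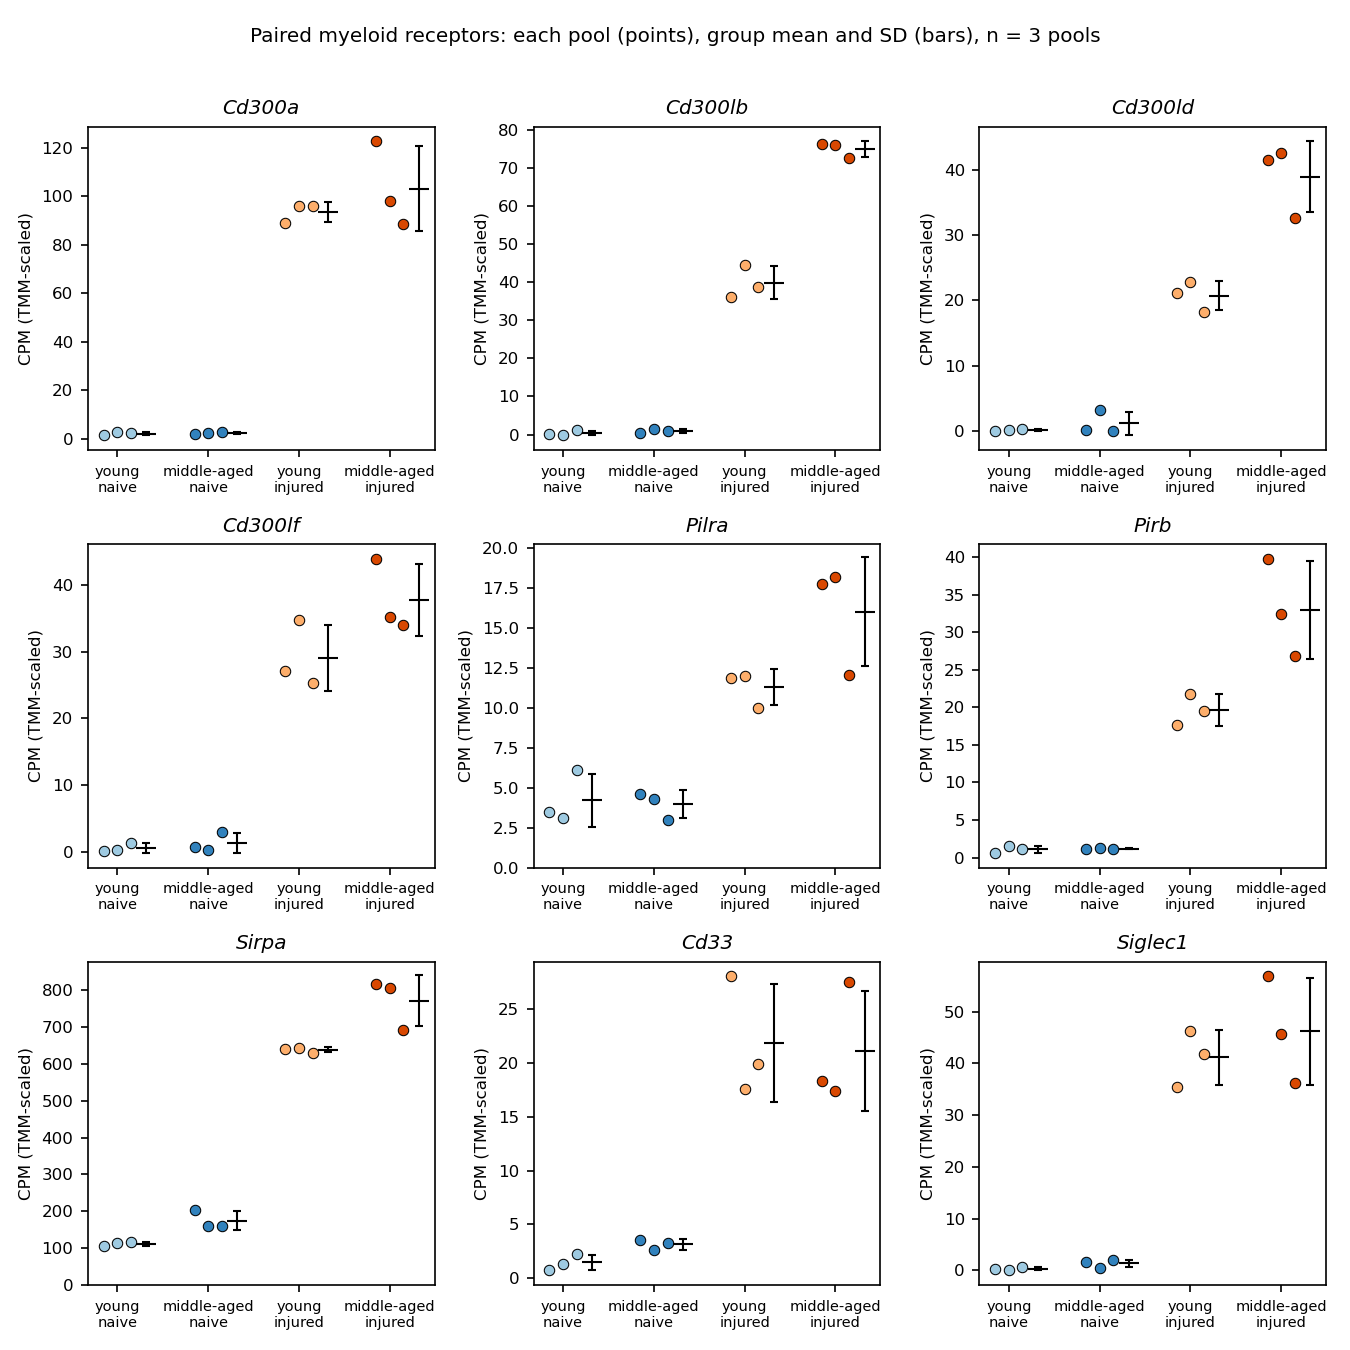
Level of each receptor in every pool, in CPM on a linear axis, with a panel per gene and the 4 groups along the horizontal axis. Points are pools, and bars beside them give the mean and SD of 3 pools. For all 9 genes the injured pools lie above the naïve pools, and for Cd300lb the middle-aged injured pools (72.5 to 76.3 CPM) lie above the young injured pools (36.1 to 44.5 CPM).

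Among the inhibitory CD300 receptors, Cd300a, which binds phosphatidylserine and phosphatidylethanolamine on dying cells, had 17, 30 and 24 counts in the young naïve pools and 23, 25 and 37 in the middle-aged naïve pools. In the lesion it had 1213, 1239 and 1273 counts in young pools and 1479, 1229 and 1027 in middle-aged pools. The naïve and injured ranges lay far apart, and the injured ranges of the 2 ages overlapped. Its mean level went from 2.28 ± 0.639 (SD, n = 3) to 93.5 ± 3.99 CPM in young mice, a 41.0-fold rise (log2 5.36, standard error (SE) 0.21, adjusted p = 1.46e-10, edgeR's quasi-likelihood test). In middle-aged mice it went from 2.59 ± 0.376 to 103 ± 17.6 CPM, a 39.4-fold rise (log2 5.30, SE 0.21, adjusted p = 1.47e-10).

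Cd300lf, the other inhibitory CD300 receptor, was near the floor in naïve tissue, with 1, 3 and 13 counts in young and 8, 2 and 37 in middle-aged pools. The lesion pools had 369, 449 and 337 counts in young and 530, 442 and 394 in middle-aged mice. In both naïve groups replicate 3 stood above the other pools. The log2 fold change was 5.69 (SE 0.63, adjusted p = 3.08e-06, edgeR) in young and 4.75 (0.55, adjusted p = 4.44e-06) in middle-aged mice. Without replicate 3 of the naïve group these became 7.24 and 6.21. Rab37, on the opposite strand of the same stretch, shares no exon bases with Cd300lf and fell by 2.24 on the log2 scale in young mice (adjusted p = 1.91e-07, edgeR).

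Cd300lb, a short-tailed receptor that activates cells through DAP12, had 1, 0 and 10 counts in young naïve and 5, 13 and 13 in middle-aged naïve pools. In the lesion its counts were 493, 575 and 516 in young and 920, 951 and 841 in middle-aged mice. Here the injured pools of the 2 ages did not overlap. Its mean rose from 0.388 ± 0.596 to 39.8 ± 4.28 CPM in young mice (log2 6.77, SE 0.48, adjusted p = 3.98e-08, edgeR) and from 0.960 ± 0.447 to 74.9 ± 2.06 CPM in middle-aged mice (log2 6.28, SE 0.42, adjusted p = 1.86e-08). Since the young naïve pools held 11 counts in all, the size of the young fold change is loosely set: the ratio of summed scaled counts was 113, with an exact 95% interval of 63.1 to 227 for counting error alone. Without young naïve replicate 3, which held 10 of the 11 counts, the log2 value was 9.48, and without replicate 2 it was 6.16.

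Cd300ld, a short-tailed receptor that signals through the Fc receptor gamma chain, was at or below 3 counts in 5 of the 6 naïve pools. The young naïve pools had 0, 1 and 3 counts, and the middle-aged naïve pools had 2, 31 and 0. Lesion pools had 288, 294 and 243 counts in young and 501, 534 and 379 in middle-aged mice, with no overlap between the ages. The rise on the log2 scale came to 7.22 in young mice (SE 0.92, adjusted p = 1.21e-05, edgeR) and 5.19 in middle-aged mice (SE 0.68, adjusted p = 1.46e-05). The ratio of summed scaled counts was 162 in young mice, with a counting interval of 63.1 to 597. The middle-aged value turned on replicate 2 of the naïve group: without that pool it was 8.64, and without replicate 3 it was 4.53. The young value was 8.54 without young naïve replicate 3.

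Pilra, an ITIM receptor for sialylated proteins such as PIANP and NPDC1, had the smallest rise of the 9. Its counts were 38, 34 and 57 in young naïve, 48, 41 and 37 in middle-aged naïve pools, and 162, 155 and 133 in young and 214, 228 and 140 in middle-aged lesions. The injured pools lay above all naïve pools, and by scaled level every middle-aged injured pool was above every young one, though the lowest of the former (12.1 CPM) nearly met the highest of the latter. Its log2 fold change came to 1.43 in young mice (SE 0.28, adjusted p = 5.83e-04, edgeR) and 2.02 in middle-aged mice (SE 0.28, adjusted p = 2.51e-05). Zcwpw1, the gene that overlaps it, had 78 to 111 counts in naïve and 76 to 95 in injured pools and did not pass the test at either age (adjusted p = 0.171 and 0.0809, edgeR).

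Pirb, an ITIM receptor for MHC class I that also binds the myelin proteins Nogo, MAG and OMgp, had 7, 17 and 10 counts in young naïve and 12, 12 and 14 in middle-aged naïve pools. The lesion held 240, 281 and 260 counts in young and 480, 406 and 311 in middle-aged pools, and the 2 ages did not overlap there. Its mean rose from 1.08 ± 0.451 to 19.6 ± 2.08 CPM in young mice (17.9-fold, log2 4.17, SE 0.27, adjusted p = 1.77e-08, edgeR). In middle-aged mice it rose from 1.18 ± 0.0727 to 33.0 ± 6.51 CPM (27.9-fold, log2 4.80, SE 0.27, adjusted p = 3.68e-09). Gm14548, which shares 1083 stretches of 31 bases with it, was at 0 in all naïve pools and had 6, 8 and 5 counts in young and 28, 9 and 21 in middle-aged injured pools.

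Sirpa, the receptor for CD47 that restrains engulfment, was by far the most abundant of the 9. Its counts were 1157, 1246 and 1075 in young naïve and 2122, 1531 and 2016 in middle-aged naïve pools. The lesion pools had 8734, 8316 and 8384 counts in young and 9846, 10118 and 8020 in middle-aged mice. The 4 groups did not overlap in scaled level. The mean went from 111 ± 5.28 to 638 ± 6.87 CPM in young mice (5.74-fold, log2 2.52, SE 0.12, adjusted p = 8.96e-10, edgeR) and from 175 ± 24.7 to 772 ± 69.5 CPM in middle-aged mice (4.41-fold, log2 2.14, SE 0.12, adjusted p = 3.28e-09).

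Cd33, a sialic acid-binding lectin of the Siglec family, had 9, 15 and 21 counts in young naïve and 37, 25 and 41 in middle-aged naïve pools. The lesion counts were 382, 227 and 264 in young and 221, 218 and 319 in middle-aged pools. The injured pools of the 2 ages overlapped, and it was the only member whose mean was lower in middle-aged (21.1 ± 5.59 CPM) than in young injured tissue (21.8 ± 5.48 CPM), a difference well within the SD. The rise was 14.9-fold in young mice (log2 3.90, SE 0.33, adjusted p = 2.42e-07, edgeR) and 6.65-fold in middle-aged mice (log2 2.73, SE 0.30, adjusted p = 2.74e-06).

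Siglec1 (sialoadhesin, CD169), an adhesion lectin of tissue macrophages with no ITIM pattern in its tail, had 3, 0 and 6 counts in young naïve and 16, 5 and 24 in middle-aged naïve pools. In the lesion it had 484, 597 and 555 counts in young and 686, 572 and 420 in middle-aged pools. Naïve levels of the 2 ages overlapped through replicate 2 of the middle-aged group, and injured levels overlapped as well. Its rise on the log2 scale was 7.10 in young mice (SE 0.49, adjusted p = 2.58e-08, edgeR) and 5.07 in middle-aged mice (SE 0.39, adjusted p = 7.34e-08). The young value was 8.13 without young naïve replicate 3 and 6.50 without replicate 2, and the counting interval of the young ratio (143) ran from 75.1 to 313.

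**Figure D2:**
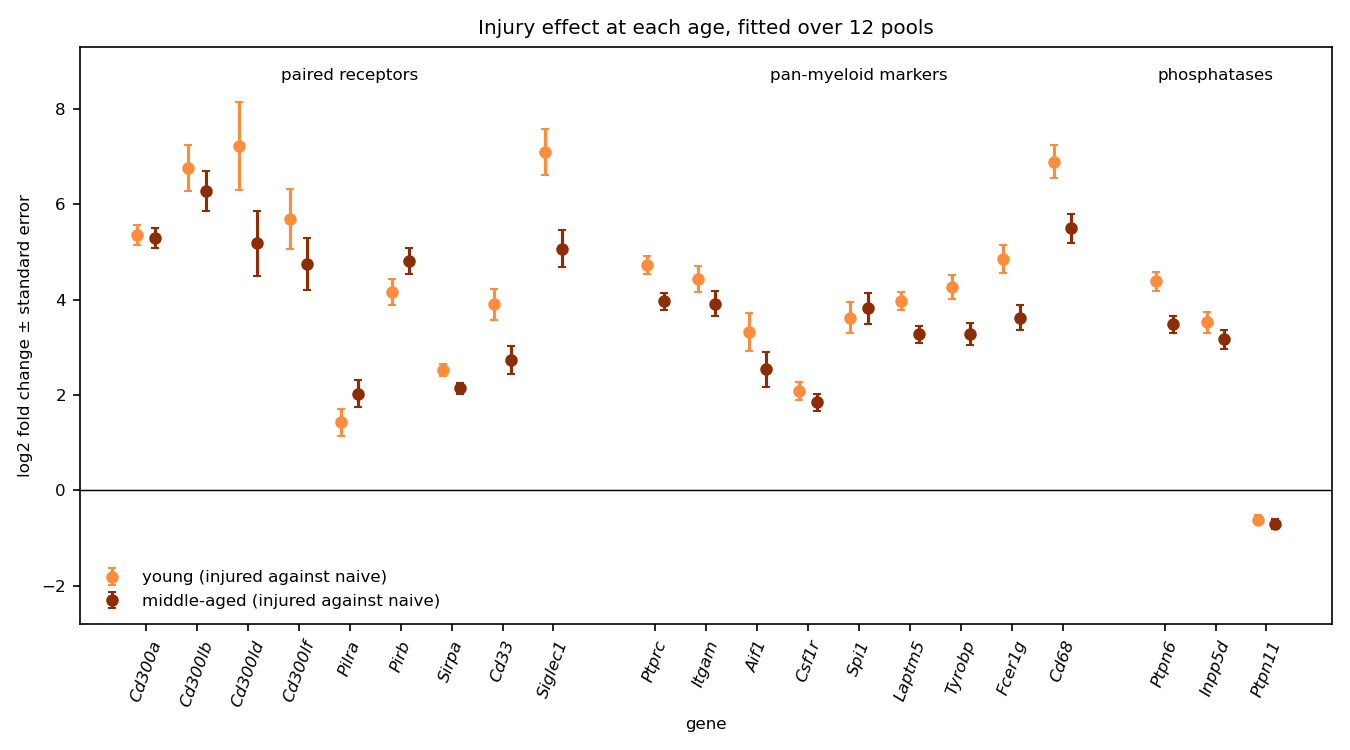
Log2 fold change of injured against naïve pools (vertical axis, points, with standard errors as bars) for the 9 receptors, the 9 pan-myeloid markers and 3 phosphatases, at each age. All receptors and markers are above 0, from 1.43 for Pilra to 7.22 for Cd300ld in young mice, and Ptpn11 lies below 0.

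Between genes, levels can be compared only per length, here as CPM per kb of merged exon. On that scale Sirpa stood first in all 4 groups, at 22.6 ± 1.08 (SD, n = 3) in young naïve, 35.6 ± 5.02 in middle-aged naïve pools, 130.0 ± 1.40 in young lesions and 157 ± 14.2 in middle-aged lesions. Pilra was second in naïve tissue of both ages (1.36 ± 0.537 and 1.28 ± 0.283) and eighth in the lesion (3.65 ± 0.362 and 5.18 ± 1.1). In young lesions Cd300a (19.7 ± 0.842) was above Cd300lb (13.6 ± 1.47), which was above Cd300ld (7.83 ± 0.858), with no overlap between neighbours. In middle-aged lesions Cd300lb (25.7 ± 0.705) and Cd300a (21.8 ± 3.71) overlapped, and Cd300ld followed at 14.7 ± 2.06. Pirb, Cd300lf, Siglec1 and Pilra overlapped with their neighbours there, between 7.38 ± 1.46 and 5.18 ± 1.1, and Cd33 was lowest at 2.71 ± 0.720. In naïve pools the members below Cd300a overlapped with their neighbours throughout.

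Counted against the myeloid markers, 4 receptors stood higher in the lesion at both ages and 2 stood lower. Counts per 100 counts on the 9 pan-myeloid markers are given here as a description, with no test. The marker sum was 101 to 135 CPM in young naïve and 1975 to 2030 CPM in young lesion pools. In middle-aged mice it was 158 to 227 CPM in naïve and 2033 to 2631 CPM in lesion pools. A gene that rose less than the sum, or did not change, stands lower on this measure. How many of all genes stood lower or higher on it was not counted. Cd300a stood at 1.53, 2.48 and 1.90 in young naïve and 1.39, 1.15 and 1.54 in middle-aged naïve pools, against 4.50, 4.81 and 4.72 in young and 4.71, 3.73 and 4.36 in middle-aged lesions. Its injured pools were thus all above its naïve pools. At both ages the same held for Cd300lb, Cd300ld and Siglec1, whose group means were higher by 6.76, 9.70 and 8.27 times in young and by 6.50, 3.11 and 2.60 times in middle-aged lesions. Single naïve pools set several of these ratios. Middle-aged naïve replicate 2 held 1.43 of Cd300ld per 100, against 0.121 and 0 in the other pools of its group, and without it the ratio was 26.5, against 2.07 without replicate 3. Young naïve replicate 3 held 0.793 of Cd300lb, against 0.0902 and 0, and without it the ratio was 44.2. The young ratio of Cd300ld was 6.47 without young naïve replicate 1 and 25.1 without replicate 3, and that of Siglec1 was 5.51 without replicate 2 and 15.2 without replicate 3. Cd300lf had all injured above all naïve pools in young mice only (ratio of means 3.19, and 8.59 without young naïve replicate 3), and Pirb in middle-aged mice only (2.19). Cd33 overlapped at both ages, with ratios of 0.882 and 0.533. Cd68 held 48, 66 and 79 of the 1109, 1209 and 1261 marker counts in the young naïve pools. In the young lesions it held 10241, 9418 and 9924 of 26945, 25769 and 26986. Csf1r held 557, 581 and 653 of the same young naïve marker counts and 3384, 3058 and 3313 of the young lesion ones. The shares thus depend on both markers, and shares without Cd68 or without Csf1r were not computed.

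Pilra and Sirpa stood on the other side. Sirpa had 104, 103 and 85.2 counts per 100 pan-myeloid counts in young naïve pools and 128, 70.7 and 83.7 in middle-aged naïve pools, against 31.1 to 32.4 in young and 30.7 to 34.0 in middle-aged lesions. Pilra had 2.81 to 4.52 and 1.54 to 2.91 in the naïve groups and 0.493 to 0.602 and 0.594 to 0.691 in the lesions. For both genes every injured pool was below every naïve pool of its age. Neurons also make SIRPα, and neuron markers summed to 680 to 1974 CPM in young naïve, 1165 to 1237 in middle-aged naïve, 275 to 479 in young lesion and 363 to 445 CPM in middle-aged lesion pools. Their part in the naïve Sirpa level was not tested.

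**Figure D3:**
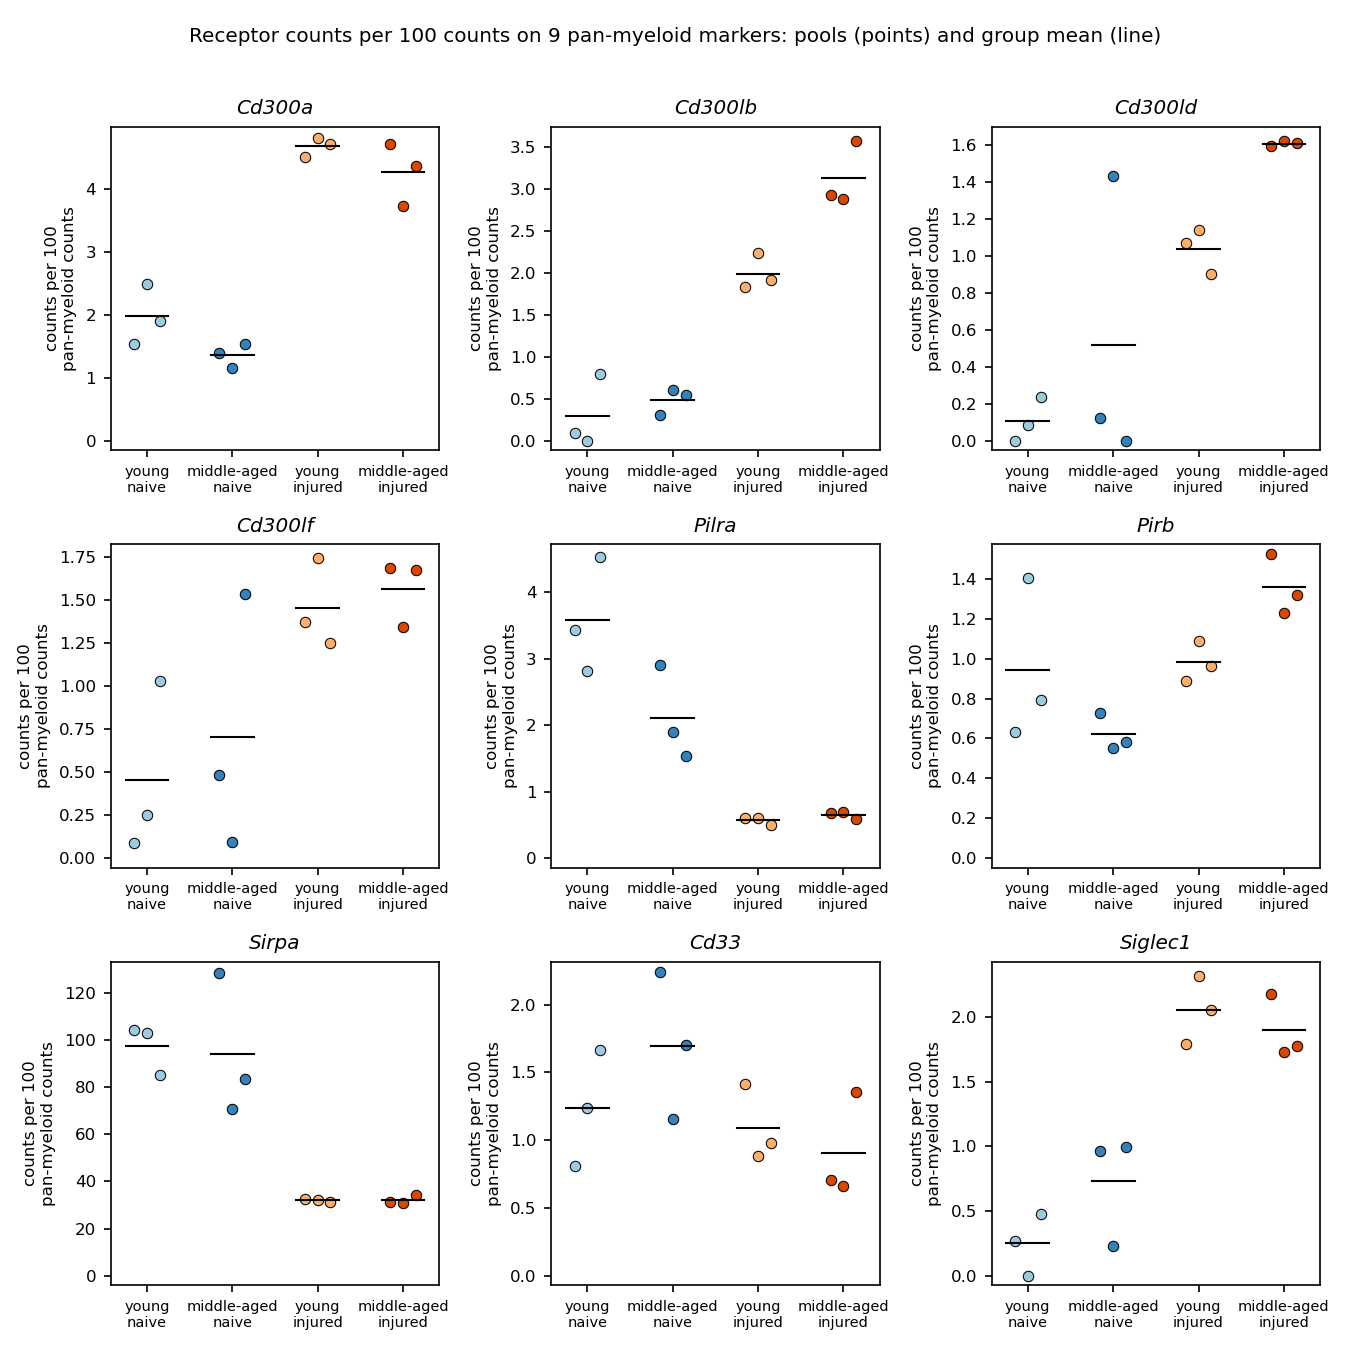
Counts of each receptor per 100 counts on the 9 pan-myeloid markers (vertical axis, linear) in every pool of the 4 groups. Points are pools and lines are means of 3 pools. The injured pools of Sirpa and Pilra lie below their naïve pools, and those of Cd300a, Cd300lb, Cd300ld and Siglec1 lie above.

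With age in naïve white matter, 1 of the 9 members passed the test, against 2.02% of all genes called higher. Sirpa rose from 105 to 115 CPM in the 3 young naïve pools to 160.4 to 204 CPM in the 3 middle-aged ones (1.57-fold, log2 0.65, SE 0.12, adjusted p = 0.00644, edgeR). The call was lost when only the 6 naïve pools were fitted (adjusted p = 0.131), with the fold change nearly the same (log2 0.66). Cd33 also had every middle-aged above every young pool (0.819 to 2.25 CPM against 2.62 to 3.55 CPM), with a log2 difference of 1.11 (SE 0.36, adjusted p = 0.107). This absence of overlap, seen for 2 of 9 members, was found for 7.78% of all genes. Siglec1 had a log2 difference of 2.20 (SE 0.64, adjusted p = 0.079), which ran from 1.59 to 3.23 when 1 pool was left out and passed the test without middle-aged naïve replicate 2 (2.55, adjusted p = 0.0282). An unadjusted p under 0.05 was found for 4 members, against 18.3% of all genes. DESeq2 called Sirpa, Cd33 and Siglec1 (adjusted p = 1.9e-05, 0.043 and 0.0043), against 6.68% of the genes to which it gave an adjusted p.

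The naïve values of Cd300ld and Cd300lf rest on single pools. Cd300ld had a log2 age difference of 2.95 (SE 1.28, adjusted p = 0.235, edgeR), which became -0.50 without middle-aged naïve replicate 2. Cd300lf had 1.32 (0.78, adjusted p = 0.395), which became -0.14 without middle-aged naïve replicate 3. Cd300lb, at 1.40 (0.70, adjusted p = 0.304), passed the test without young naïve replicate 3 (log2 4.11, adjusted p = 0.0147). Of the pan-myeloid markers, 6 of 9 were higher in middle-aged naïve tissue, among them Cd68 (log2 1.85, adjusted p = 0.00486, edgeR) and Ptprc (1.17, adjusted p = 0.00363). Per 100 pan-myeloid counts all 9 receptors overlapped between the naïve ages, and Sirpa had a ratio of means of 0.966. The part of the myeloid markers in the Sirpa difference was not tested.

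**Figure D4:**
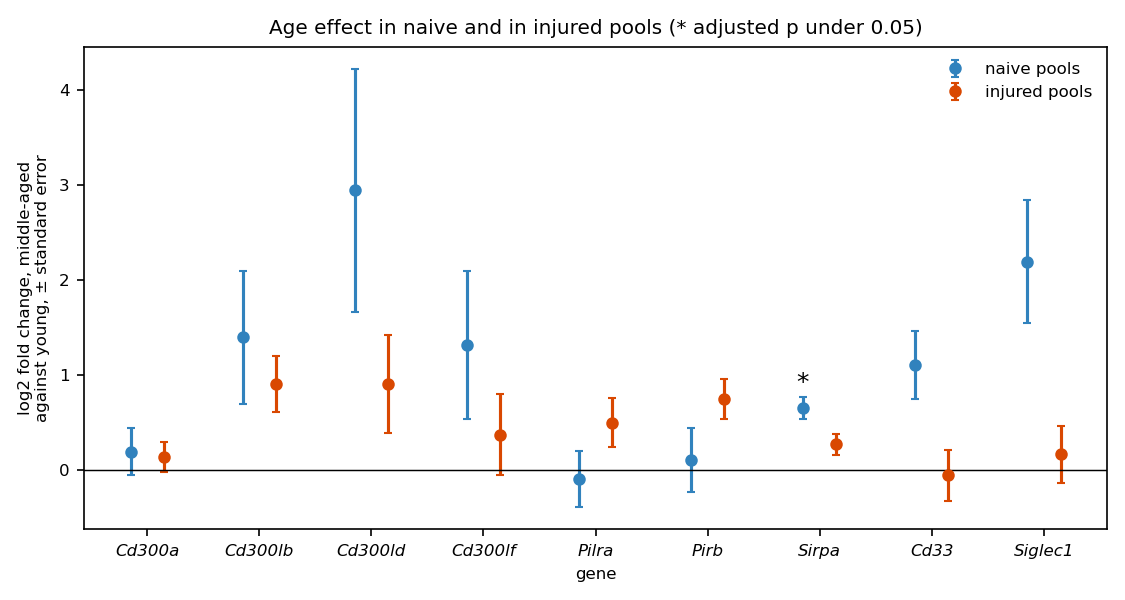
Log2 fold change of middle-aged against young mice (vertical axis, points, with standard errors as bars) for each receptor, in naïve and in injured pools. The star marks Sirpa in naïve pools (0.65), the member with an adjusted p under 0.05.

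In the lesion 8 of the 9 members had higher fitted values in middle-aged mice, and none passed the test, against 1.15% of all genes called in either direction. Unadjusted p-values were under 0.05 for 3 members, against 9.63% of all genes. DESeq2 called 2 members and 2.84% of all genes with an adjusted p, and edgeR called 3 members and 5.46% of all genes when only the 6 injured pools were fitted. Cd300lb and Pirb were called in both of these fits and Cd300ld in the latter. Cd300lb was 1.88 times higher (log2 0.91, SE 0.30, adjusted p = 0.214 over all 12 pools), with an adjusted p = 8.97e-04 in the fit of the injured pools and 3.42e-05 in DESeq2. Pirb was 1.68 times higher (log2 0.75, SE 0.21, adjusted p = 0.122), with adjusted p-values of 0.0155 and 0.0248 in those fits. Cd300ld was 1.88 times higher (log2 0.91, SE 0.51, adjusted p = 0.679), with an adjusted p of 0.00303 in the fit of the injured pools. Cd300ld was also called without middle-aged naïve replicate 2 (adjusted p = 0.0354, edgeR). Of all the alternatives run, Cd300ld was called in 2 and not in 17. Cd300lb was called in 4 and not in 15, and Pirb in 2 and not in 17. Why the calls differed between fits was not tested.

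Every middle-aged injured pool was above every young injured pool for 5 of the 9 members (Cd300lb, Cd300ld, Pilra, Pirb and Sirpa), which held for 11.1% of all genes tested. For Cd300lb the levels were 36.1, 44.5 and 38.8 CPM in young and 76.3, 75.8 and 72.5 CPM in middle-aged lesions. For Cd300ld they were 21.1, 22.8 and 18.3 against 41.5, 42.6 and 32.7 CPM. Among the inhibitory members Pirb stood at a log2 difference of 0.75 and Pilra at 0.50, while Cd300a stood at 0.14 (SE 0.16, adjusted p = 0.954, edgeR) and Cd300lf at 0.38 (0.43, adjusted p = 0.954). Cd300c2, an activating relative, stood at 0.39 (adjusted p = 0.548). Per 100 pan-myeloid counts, middle-aged lesions were all above young ones for Cd300lb (1.83, 2.23 and 1.91 against 2.93, 2.88 and 3.57), Cd300ld (1.07, 1.14 and 0.900 against 1.59, 1.62 and 1.61) and Pirb (0.891, 1.09 and 0.964 against 1.53, 1.23 and 1.32). Pilra, Sirpa, Cd300a, Cd300lf, Cd33 and Siglec1 overlapped on that measure. The share of all genes without overlap on it was not counted. The summed pan-myeloid markers themselves were 2033 to 2631 CPM in middle-aged and 1975 to 2030 CPM in young lesions. The lowest middle-aged pool was thus nearly level with the highest young one. Of 25 pan-myeloid, microglia, monocyte and border macrophage markers, 0 passed edgeR's test of age in the lesion. An unadjusted p under 0.05 was found for 9 of them, against 9.63% of all genes. Of these 9, Itgam (log2 0.60, adjusted p = 0.31) and Ccr2 (1.01, adjusted p = 0.0821) stood higher in middle-aged lesions, while the microglia markers P2ry12 (-0.43, adjusted p = 0.387) and Cx3cr1 (-0.37, adjusted p = 0.4) stood lower. Their part in the receptor differences was not tested.

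For the difference of the injury effect between the ages, 0 of 9 members passed edgeR's test, against 0.139% of all genes. Unadjusted p-values under 0.05 were seen for 3 members, against 9.93% of all genes. DESeq2 called 0 members and 1.52% of all genes with an adjusted p. With no filter on low counts edgeR called 1 member (Siglec1, adjusted p = 0.0446) and 1.21% of all genes. The 3 with a low unadjusted p were Siglec1 (log2 difference -2.03, SE 0.72, adjusted p = 0.328, edgeR), Cd33 (-1.17, 0.45, adjusted p = 0.383) and Sirpa (-0.38, 0.16, adjusted p = 0.451), in which the rise was smaller in middle-aged mice. Their naïve levels were higher in middle-aged mice by 2.20, 1.11 and 0.65 on the log2 scale, and their injured levels differed by 0.17, -0.05 and 0.27. Pirb and Pilra had values of 0.64 and 0.59, a larger rise in middle-aged mice, with adjusted p-values of 0.661 and 0.68.

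Of 38 symbols listed as relatives of the 9, 23 had a row and 14 passed the filter on low counts. Of these, 11 were higher and 1 lower in young lesions (median log2 fold change 4.16), and 9 were higher and 2 lower in middle-aged lesions (3.83). Some, such as Sirpb1a, Sirpb1b, Sirpb1c and Cd300ld3, had 0 or 1 counts in every naïve pool. They passed the filter through the injured pools, so for them a higher call was close to fixed. Over all genes the test called 28.3% higher and 26.3% lower in young lesions, and 29.2% and 29.3% in middle-aged lesions. The same shares stand beside the injury counts of the lists below. Listed symbols for which no row was found, such as Lilrb4a, were not analysed here. Of the 16 Pir and Lilr symbols listed, 3 had a row. In the Cd300 cluster Cd300c2, an activating receptor next to Cd300ld, rose from 1.27 to 1.36 CPM to 21.4 to 28.2 CPM in young mice (log2 4.24, adjusted p = 4.68e-09, edgeR) and by 3.69 in middle-aged mice (adjusted p = 7.05e-09). Cd300ld3 had 0 counts in all but 1 naïve pool and 13 to 27 in injured pools, so that the young rise was at least 12.1-fold against a floor of 3 counts over the group. Cd300lg, an endothelial relative outside the cluster, had 3 counts in each naïve group and 72 and 58 in the injured groups (ratio 18.9, counting interval 6.21 to 93.7, in young mice). Cd300e did not pass the test at either age (log2 0.74 and 1.80, adjusted p = 0.44 and 0.137). Cd300c, Cd300ld2, Cd300ld4 and Cd300ld5 had no more than 3 counts in any pool.

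**Figure D5:**
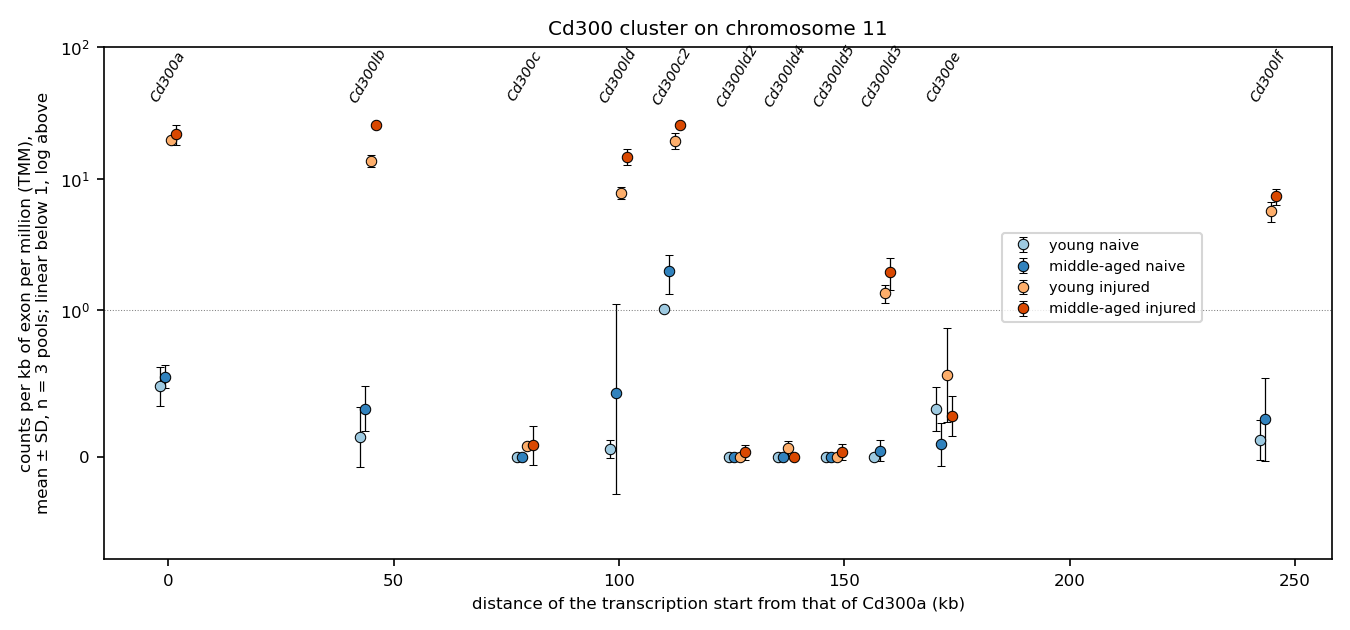
Level of the Cd300 genes on chromosome 11 as CPM per kb of merged exon (vertical axis, linear below 1 and log above), against the distance of each start from that of Cd300a in kb. Points are means and bars SD of 3 pools in each of the 4 groups. Cd300a, Cd300lb, Cd300ld, Cd300c2 and Cd300lf stand high in injured pools, with starts at 0.0, 44.3, 99.9, 111.8 and 244.0 kb, and Cd300ld2, Cd300ld4 and Cd300ld5 lie at or near 0.

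The activating counterparts of SIRPα and PIR-B were all but missing from naïve tissue. Sirpb1a, Sirpb1b and Sirpb1c had 0 counts in all 6 naïve pools, and 14 to 22, 14 to 32 and 40 to 73 counts in the injured pools. The rise was thus at least 13.1-, 15.2- and 35.4-fold in young and at least 18.3-, 21.2- and 47.0-fold in middle-aged mice. All 3 passed the filter on low counts only through the injured pools. A higher call in the test was thus close to fixed for them, and the counts alone are given. Pira2, the activating PIR-A receptor, had 1, 3 and 0 counts in young naïve and 0 in each middle-aged naïve pool, against 104, 111 and 109 in young and 226, 136 and 135 in middle-aged lesions (adjusted p = 9.84e-07 and 1.21e-07), at least a 149-fold rise in middle-aged mice. Lilra5 was also higher at both ages (log2 4.08 and 2.54, adjusted p = 0.00243 and 0.0132). Pira2 and Lilra5, with no more than 3 and 6 counts in any naïve pool, also passed the filter through the injured pools. Pilrb1, Pilrb2 and Lilra6 did not pass the filter, with no more than 8, 7 and 18 counts in any pool.

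Among the other Siglecs, Cd22, an ITIM receptor best known from B cells, rose from 1 count in each young naïve pool to 385, 317 and 368 in the young lesion (adjusted p = 2.93e-10, edgeR). With 3 naïve counts the young ratio was 281, with a counting interval of 95.7 to 1363. It rose by 6.02 on the log2 scale in middle-aged mice (adjusted p = 5.30e-10). The B cell markers Cd79a and Ms4a1 had no more than 6 counts in any pool. Siglece (log2 1.95, adjusted p = 0.0275) and Siglecf (2.73, adjusted p = 0.00834) rose in young mice and stood, at the older age, at 1.37 (adjusted p = 0.0868) and 0.82 (adjusted p = 0.341). Whether these 2 differed between the ages was tested, with adjusted p-values of 0.903 and 0.619. Siglech, a microglial marker, was higher with age in naïve tissue (log2 1.13, adjusted p = 0.0209) and fell by 1.51 with injury in middle-aged mice (adjusted p = 1.01e-04), while in young mice it stood at -0.03 (adjusted p = 0.939). The injury effects on Siglech at the 2 ages differed by -1.49 on the log2 scale, which did not pass the test (adjusted p = 0.119, edgeR). Siglecg had no more than 8 counts in any pool and was not tested. Mag, the myelin Siglec, fell by 1.52 in young and 2.02 in middle-aged mice and was lower in middle-aged than young lesions (log2 -0.91, adjusted p = 0.027).

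Most signalling partners of the receptors were higher in the lesion, Ptpn11 was lower and Src did not pass the test. All 3 adaptors were higher at both ages, with Fcer1g first in young mice (log2 4.86, adjusted p = 7.27e-09, edgeR) and Tyrobp lowest in middle-aged mice (3.29, adjusted p = 2.82e-08). Ptpn6, which encodes SHP-1, rose from 44 to 57 counts in young naïve pools to 1253 to 1380 in the lesion (log2 4.39, adjusted p = 4.94e-10) and by 3.48 in middle-aged mice (adjusted p = 2.03e-09). Inpp5d, which encodes SHIP-1, rose by 3.52 and 3.17. Ptpn11, which encodes SHP-2 and is made by most cells, fell by 0.62 (adjusted p = 1.41e-04) and 0.70 (adjusted p = 3.65e-05). Of the 6 kinases, 5 were higher at both ages, led by Fgr (log2 5.08 and 5.40), and Src was lowest at -0.19 and -0.14 (adjusted p = 0.39 and 0.536).

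Ligands and partners were mixed, with 6 of 10 higher and 2 lower in young and 5 higher and 3 lower in middle-aged lesions. The lower calls were near the share over all genes, 26.3% in young and 29.3% in middle-aged lesions. Thbs1 (thrombospondin-1), a partner of CD47, rose most, from 8, 12 and 15 counts to 6406, 3111 and 3461 in young mice (log2 8.16, adjusted p = 3.07e-10, edgeR) and by 8.92 in middle-aged mice (adjusted p = 1.53e-10). It was also higher in middle-aged than in young lesions (log2 1.13, adjusted p = 0.027). Cd47 itself had 998 to 1462 counts in naïve and 1252 to 1816 in injured pools and did not pass the test (log2 0.10 and 0.20, adjusted p = 0.541 and 0.224). The MHC class I genes H2-K1 and H2-D1 rose by 2.82 and 2.89 in young mice. Omg, which encodes OMgp, fell most, to a log2 fold change of -1.88 in middle-aged mice (adjusted p = 7.48e-08).

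Markers of the cells that could carry these receptors moved as follows. The 6 monocyte and macrophage markers were all higher at both ages, with a median log2 fold change of 8.13 in young and 6.59 in middle-aged mice, led by Ccr2 in young mice (0 counts in all young naïve pools, and at least 673-fold higher in the lesion). Ly6c2 stood lowest among them in young mice (log2 3.46). Of the 6 homeostatic microglia markers, 3 were higher and 1 lower in young lesions, and 2 were higher and 2 lower in middle-aged lesions, with Siglech lowest. Mrc1, Lyve1 and Folr2 of the 4 border macrophage markers were higher at both ages, with Folr2 first (4.74 and 4.46), and Cd163 stood at 0.24 and 1.26 (adjusted p = 0.755 and 0.0774). All 6 oligodendrocyte markers fell at both ages, with Mag falling least (by 1.52 in young mice). Mbp, Mog, Mag and Cnp were lower still in middle-aged than in young lesions (log2 -0.80 to -0.99, adjusted p of 0.027 or less). Clec9a (0 counts in young naïve pools, at least 8.65-fold higher in the lesion) and Flt3 (log2 -1.63) bounded the dendritic cell markers in young mice, and Pecam1 (1.66) and Cldn5 (0.11) the endothelial ones in middle-aged mice. Slc1a3 (-2.17) and Rbfox3 (-2.81) were the lowest astrocyte and neuron markers in middle-aged mice, with Aldh1l1 (-0.17) and Slc17a6 (1.52) the highest, and S100a8 was the neutrophil marker tested (0 counts in naïve pools, at least 13.6-fold higher in young lesions). Trac, the T cell marker tested, stood at -0.59 and -0.22 (adjusted p = 0.189 and 0.614). The part of any of these cell types in the receptor values was not tested.

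The genes whose log2 CPM followed each member most closely over the 12 pools were Gmip and Cebpa for Cd300a, Itgam and Nfam1 for Cd300lb, Rps12 and Rpl35 for Cd300ld, Plekha2 and Ewsr1 for Cd300lf, and Gm37567 and Mpdu1 for Pilra. For the rest they were Ctsl and Cfp for Pirb, Atf3 and Nfkb1 for Sirpa, Ncoa3 and Agtrap for Cd33, and Hcls1 and Dock8 for Siglec1. Likeness was the highest Pearson correlation among genes with a mean log2 CPM of at least 1, and it lay between 0.982 and 0.999. The 12 pools fall into naïve and injured sets, so these values mostly describe that split, and they are given with no test.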

How the data were processed

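The authors checked reads with FastQC 0.11.4, aligned them to GRCm38 (TopHat 2.0.10, bowtie 1.1.2) and deposited raw counts of reads per gene from featureCounts, without normalization. The annotation release, strand setting and treatment of shared reads are not given in the sources used here. Reads from overlapping genes or near-identical copies could therefore be mixed. All 12 columns were used.

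The counts of all 12 pools entered 1 fit of edgeR 4.0.16 under R 4.3.3, scaled by TMM factors, filtered by filterByExpr and tested by quasi-likelihood F, with 1 coefficient per group, and p-values were adjusted over 15866 genes at a threshold of 0.05. Standard errors were derived from F as log2 fold change over its square root. CPM are counts per 1000000 TMM-scaled counts. Intervals are exact 95% binomial ones, and with the floor of 3 counts they cover counting error only, since amplified reads are not independent molecules. The p-values measure the spread between pools.

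The members and lists were chosen with earlier results of these data known. All 9 members were named. From the other lists, genes with the highest and lowest log2 fold change after injury, genes that passed the age test in injured pools or the test of the difference between injury effects, and relatives of the 9 were named. Ptprc, Itgam, P2ry12, Cx3cr1, Mrc1, Lyve1, H2-K1, H2-D1, Inpp5d, Cd47, Zcwpw1, Rab37 and Gm14548 were named after their values were seen. Some genes that the rule would name are not reported here. Alternatives were 2 other scalings, DESeq2 1.42.0, 2 filters, only the pools compared, the replicate number as a block and each pool left out, which for shares of the pan-myeloid counts was chosen after seeing the data. The fit was tested on simulated counts with known changes.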

Additional observations from a re-analysis of the deposited data

Results flagged for a closer look

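The rise after injury differed between the ages for 2 genes of the lists used, both of them monocyte and macrophage markers and neither a member. For Lyz2, which encodes lysozyme, the difference of the log2 fold changes (middle-aged minus young) was -1.89 (adjusted p = 0.00275, edgeR's quasi-likelihood test). Its counts were 193, 258 and 220 in young naïve, 1113, 761 and 1254 in middle-aged naïve, 76729, 91919 and 74306 in young injured and 92575, 91069 and 82524 in middle-aged injured pools. For F13a1, which encodes coagulation factor XIII subunit A, the difference was -1.70 (adjusted p = 0.034, edgeR). It had 17 to 19 counts in young naïve and 47 to 77 in middle-aged naïve pools. Both genes were higher with age in naïve tissue (log2 2.15 and 1.65, adjusted p = 8.18e-06 and 0.0022) and stood at 0.27 and -0.05 between the ages in the lesion (adjusted p = 0.643 and 0.995).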

How the results depend on the processing

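Both injury comparisons kept 9 of 9 members called, in the same direction, under every alternative run, including the replicate block, which gave 9 calls at each age and changed no other call. The replicate numbers did not pair the pools: deviations of same-numbered pools from their group means correlated at -0.113 to 0.153 (median 0.017). The age calls did move. For naïve pools, 1 member was called, against 3 with DESeq2, 4 with no filter and 0 with only the pools compared, and 1 to 2 with a pool left out. For injured pools, 0 were called, against 2 with DESeq2, 1 with no filter, 3 with only the pools compared, and 0 to 1 with a pool left out. For the difference of injury effects, 0 were called, against 1 with no filter. Over all genes, the fit of only the pools compared called 71 instead of 603 genes for age in naïve and 821 instead of 182 in injured pools. DESeq2 called 1073, 441 and, for the difference of injury effects, 228 instead of 22, and the fit with no filter 1153, 437 and 329. Scaling to library totals alone moved the median of all genes after injury in young mice to 0.20 and the share of calls that were higher from 51.8% to 62.4%, with no member call changed. That share went from 40.9% to 25.8% for the difference of injury effects. Some uncalled values changed sign when 1 pool was left out. Their ranges were, for age in naïve pools, -0.026 to 0.35 for Cd300a, -0.50 to 4.25 for Cd300ld, -0.14 to 2.87 for Cd300lf, -0.28 to 0.26 for Pilra and -0.17 to 0.47 for Pirb. For age in injured pools Cd33 ran from -0.28 to 0.18. For the difference of injury effects the ranges were -0.21 to 0.17 for Cd300a, -3.20 to 0.12 for Cd300lb, -3.34 to 1.41 for Cd300ld and -2.49 to 0.52 for Cd300lf. The cause of these changes was not tested. Shares per 100 pan-myeloid counts moved by less than the spread between pools when Tyrobp and Fcer1g were left out of the markers, in 36 of 36 values. Where a pool had a share of 0 the spread had no upper limit, so the check could not fail. This was so for comparisons of Cd300lb, Cd300ld and Siglec1 with such a naïve pool, and these say nothing about stability.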
